A study of Homo sapiens with 18 samples.

Results

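The genes for the protein subunits of the mitochondrial ribosome (the mitoribosome) were followed in RNA-seq libraries of MDA-MB-231 cells, a triple negative human breast cancer line. Rows of the count matrix were taken where the Ensembl identifier belonged to a protein-coding gene with a symbol of MRPL or MRPS and a digit, together with DAP3 and PTCD3, and pseudogenes were left out. This gave 80 genes of the 57448 rows. All 80 reached the minimum level for testing, at least 1 CPM (counts scaled to the library's total) in at least 3 of the 18 libraries, as did 15587 genes in all.

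Mitochondria have their own ribosome, which translates the few messages made from mitochondrial DNA, all of them for core subunits of the respiratory chain and the ATP synthase. Its ribosomal RNAs come from the mitochondrial genome, whereas every protein subunit is encoded in the nucleus, made in the cytosol and imported. Part of these proteins descend from bacterial ribosomal proteins and the others were added during the evolution of mitochondria. Here 51 genes belonged to the large subunit (30 with a bacterial homolog, 21 mitochondria-specific) and 28 to the small subunit (16 and 12). MRPS36 was placed in neither subunit, since its product is now assigned to the 2-oxoglutarate dehydrogenase complex.

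The study asked what the loss of GPS2, a small subunit of a nuclear corepressor complex that also restrains signalling to the kinase AKT, does to these cells, and whether AKT activity accounts for it. The 6 groups held 3 libraries each. WT are the parental cells. KO1 and KO2 are GPS2 knockout lines, each made with its own set of lentiviral Cas9 guides against exons of GPS2 and selected as a pool of cells, not as a clone. MyrAKT cells carry a retrovirus for constitutively active, myristoylated AKT1 in otherwise parental cells. No group carries an empty virus, so infection itself cannot be told apart from the edit or from AKT1. KO1+MK and KO2+MK are the same knockout pools after 4 h in 10 µM MK2206, an allosteric AKT inhibitor, so both treated groups also carry the edit, and neither WT nor myrAKT cells were treated. No label says that replicates were separate cultures, and the p-values then measure the spread between these libraries only. In bulk RNA, fewer cells of a kind and less RNA per cell cannot be told apart.

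Library totals were between 23419198 and 39319910 counts. GPS2 RNA was not lower in the libraries labelled KO1 and KO2 than in WT, at 4.57 ± 0.278 CPM in WT (SD, n = 3), 4.50 ± 0.0364 in KO1 and 6.04 ± 0.123 in KO2. Counts of the whole gene do not show an edit, so the knockout groups are named here as labelled. The study itself reports that the knockdown was checked by western blot and by genomic PCR. AKT1 was higher in myrAKT, at 231 ± 12 against 135 ± 1.00 CPM (log2 fold change 0.77, adjusted p = 4.27e-09). All 8 mesenchymal markers of MDA-MB-231 were expressed (summed 3553 to 4607 CPM per library), of 8 luminal markers 6 passed the filter with CDH1 and PGR at no more than 0.137 CPM, and none of 4 haematopoietic markers passed (summed at most 0.296 CPM). The luminal markers moved with the groups. Their summed level was 276.1 to 290.6 CPM in WT, 158 to 173 in KO1, 125 to 139 in KO2, 78.4 to 94.3 in myrAKT, 129.7 to 139 in KO1+MK and 92.8 to 100.1 in KO2+MK. In KO 3 of 6 fell and 0 rose, with ERBB3 (log2 fold change −1.45, adjusted p = 1.8e-06) and KRT19 (log2 fold change −0.97, adjusted p = 2.15e-05) the most, and in myrAKT 4 fell and 0 rose, with KRT19 (log2 fold change −1.93, adjusted p = 1.94e-11) and EPCAM (log2 fold change −1.90, adjusted p = 7.54e-10) the most. With MK2206 in KO 2 rose and 1 fell. Of the 8 mesenchymal markers 1 rose and 1 fell in KO, CAV1 (log2 fold change 0.46, adjusted p = 9.32e-05) and FN1 (log2 fold change −0.69, adjusted p = 2.41e-06). In myrAKT 3 rose and 2 fell, with CAV2 (log2 fold change −0.68, adjusted p = 6.87e-08) and CD44 (log2 fold change −0.50, adjusted p = 7.54e-07) the most, and with MK2206 in KO 3 fell. The part of these shifts in the mitoribosomal values was not tested.

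Mitoribosomal protein genes were expressed in every library. Their lowest count in any library was 34 and their highest 6561, and the median gene had at least 861.5 counts in its shallowest library. Compared per length, as CPM per kilobase of the canonical transcript, their means over the 18 libraries ran from 2.21 to 93.8, a 42.5-fold range, with quartiles of 15.5, 29.9 and 44.8. Genes of the large subunit had a median level of 30.4 and those of the small subunit 24.6 CPM per kilobase. The highest were MRPL51 (93.8 ± 12.9, SD over 18 libraries), MRPL33 (93.1 ± 5.54) and MRPL18 (66.7 ± 4.78), and the first pair did not differ beyond their spread. The lowest were MRPL38 (4.12), MRPS17 (3.39) and MRPS24 (2.21). All of these share exon bases with another gene on their own strand (1373, 471 and 606 bases). Among the highest, MRPL51 shares 383 bases with NCAPD2 on the opposite strand and MRPL33 shares 324 with BABAM2 on its own. How the counting treated reads in more than 1 gene is not given, so these ranks and the range are less certain.

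Between groups the levels moved within narrow limits. The ratio of the highest to the lowest group mean had a median of 1.40 over the 80 genes, against 1.53 over all genes tested, and ran from 1.08 (MRPL55) to 2.04 (MRPL21), with MRPL49 (1.87) and MRPS27 (1.84) next. KO1 held the highest group mean for 53 of the 80 genes (18.9% of all tested genes), KO2 for 12 (10.8%) and KO2+MK for 0 (18.6%). MyrAKT held the lowest group mean for 43 (23.8% of all tested genes) and WT for 23 (23.5%), whereas KO1 and KO2 held it for 0 (15.1% and 10.2%). The mean log2 CPM over the 80 genes was 4.98 to 5.01 in the 3 WT libraries, 5.28 to 5.33 in KO1, 5.17 to 5.26 in KO2, 4.85 to 4.98 in myrAKT, 5.07 to 5.17 in KO1+MK and 5.02 to 5.12 in KO2+MK. The KO1 libraries and 2 of the 3 KO2 libraries lay above every other library, KO2 replicate 2 lay level with the highest KO1+MK library, and all treated libraries lay above all WT libraries.

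**Figure D1:**
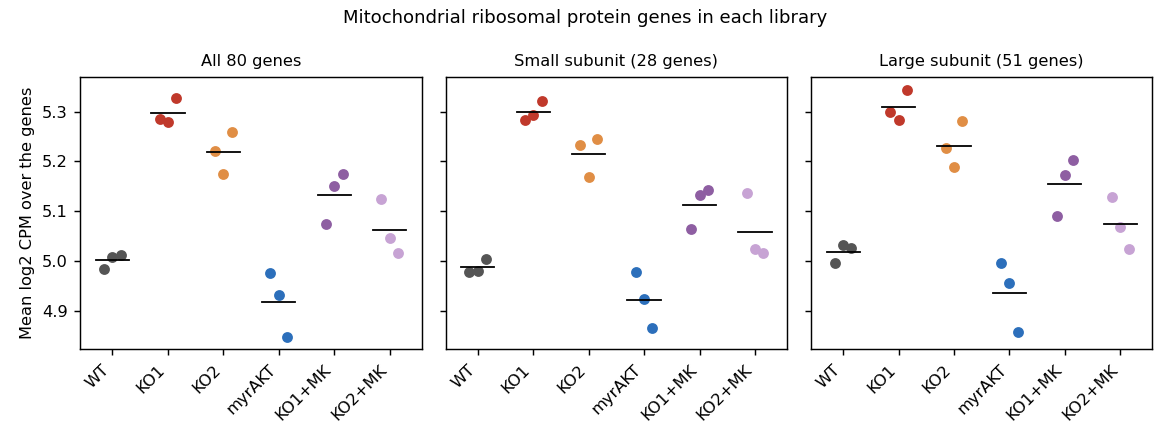
Mean log2 CPM over all 80 mitoribosomal protein genes, the 28 of the small subunit and the 51 of the large subunit in each library (points), with the mean of each group as a line (n = 3). For all 80 genes the WT libraries sit at 4.98 to 5.01, KO1 at 5.28 to 5.33 and myrAKT at 4.85 to 4.98, and both subunits show the same order of group means.

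The 80 genes were spread over 21 chromosomes, 38 on the minus strand, with 9 each on chromosomes 1 and 2, 8 on chromosome 17 and 7 on chromosome 11 (GENCODE release 44, GRCh38). MRPL46 and MRPS11 lie head to head on chromosome 15, their starts 63 bases apart (88467390 on the minus and 88467453 on the plus strand). Exons of 42 genes overlap those of another gene, 18 on the same and 31 on the opposite strand. Whether the counting used strand, or how it treated reads in more than 1 gene, is not given in the sources used here, so values of such genes are less certain. Annotated pseudogene copies exist for 37 genes, and their own rows held more than 5% of the parent's reads for MRPL53 and MRPS31.

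Promoters were read for 71 of the 80 genes from RefSeq windows of 250 bases before to 50 bases after the annotated start (GRCh38.p14), and 4 motifs were searched on both strands. The letters AAGATGG, the core of YY1 sites, occurred in 25 windows (35.21%, against 9.19% of 11023 tested genes with a window). They contain the letters ATG, and 18 of the 25 had a match after the transcription start and 20 on the strand of the gene. Whether this ATG is the start codon of the protein was not checked. CCGGAAG, an ETS core, occurred in 30 (42.25% against 21.85%), the E-box CACGTG in 9 (12.68% against 12.22%), and the NRF1 core GCATGCG in 7 (9.859% against 7.457%). A match is a stretch of letters and not a bound site. In KO against WT, 13 of the 25 genes with the YY1 core were called higher (median log2 fold change 0.31), and 18 of the 46 without it (0.24), while with the ETS core it was 12 of 30 (0.23) and without it 19 of 41 (0.27). Of all tested genes 15.5% were called higher in this comparison. Windows are shown for genes with large changes in the comparisons that follow, from 120 bases before to 30 after the start, 5′ to 3′ on the strand of the gene, with matched motifs in capitals. MRPS7 and MRPS30 hold the YY1 core after the start, MRPS12 the ETS core, MRPL36 the E-box and the reverse complement of the YY1 core, and MRPS25, the gene with the largest rise in KO, none of the 4 within the printed stretch.
MRPS25, chr3:15065286-15065435, minus strand: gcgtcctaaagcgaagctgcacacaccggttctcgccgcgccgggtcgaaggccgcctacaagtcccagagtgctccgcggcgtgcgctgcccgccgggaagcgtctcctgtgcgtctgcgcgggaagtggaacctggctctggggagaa
MRPS7, chr17:75261759-75261908, plus strand: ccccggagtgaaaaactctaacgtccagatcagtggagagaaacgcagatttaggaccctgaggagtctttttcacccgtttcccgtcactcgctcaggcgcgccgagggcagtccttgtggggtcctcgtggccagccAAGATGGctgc
MRPS12, chr19:38930824-38930973, plus strand: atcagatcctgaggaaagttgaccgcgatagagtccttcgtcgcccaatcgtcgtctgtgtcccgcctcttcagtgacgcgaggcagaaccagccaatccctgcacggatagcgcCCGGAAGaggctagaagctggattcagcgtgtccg
MRPL36, chr5:1799808-1799957, minus strand: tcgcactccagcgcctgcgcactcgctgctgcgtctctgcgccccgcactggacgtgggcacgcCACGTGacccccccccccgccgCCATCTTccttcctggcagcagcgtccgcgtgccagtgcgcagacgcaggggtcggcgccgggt
MRPS30, chr5:44808827-44808976, plus strand: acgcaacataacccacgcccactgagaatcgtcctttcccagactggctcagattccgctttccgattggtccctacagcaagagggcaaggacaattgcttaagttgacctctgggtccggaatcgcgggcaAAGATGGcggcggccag

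The first comparison asked how mitoribosomal RNA differs in the libraries labelled KO1 and KO2 (6 KO against 3 WT libraries). At an adjusted p of at most 0.001, 33 of the 80 genes rose in KO and 0 fell, against 15.5% and 16.6% of all tested genes called higher and lower. The median log2 fold change was 0.25 over the 80 genes and −0.0029 over all genes tested, and 70 of the 80 lay above 0. Libraries did not overlap for 56 genes higher in KO (29.1% of all genes) and 2 lower (26.8%). The changes were small: with a minimum of 1.5-fold, 2 genes passed as higher, MRPS25 and MRPS7, and 0 as lower (4.07% and 8.59% of all genes). At an unadjusted p under 0.05, 57 genes were higher and 4 lower, and DESeq2 called 45 higher and 0 lower. All 18 libraries in 1 fit gave 50 higher and 1 lower. Shares of all genes at an unadjusted p, with DESeq2 or in other alternative fits are not given, here or below. Such counts show how the main count moves and are no result about the genes. Without WT replicate 1 the count of rises was 23, and it was 23 to 40 over all libraries left out in turn.

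**Figure D2:**
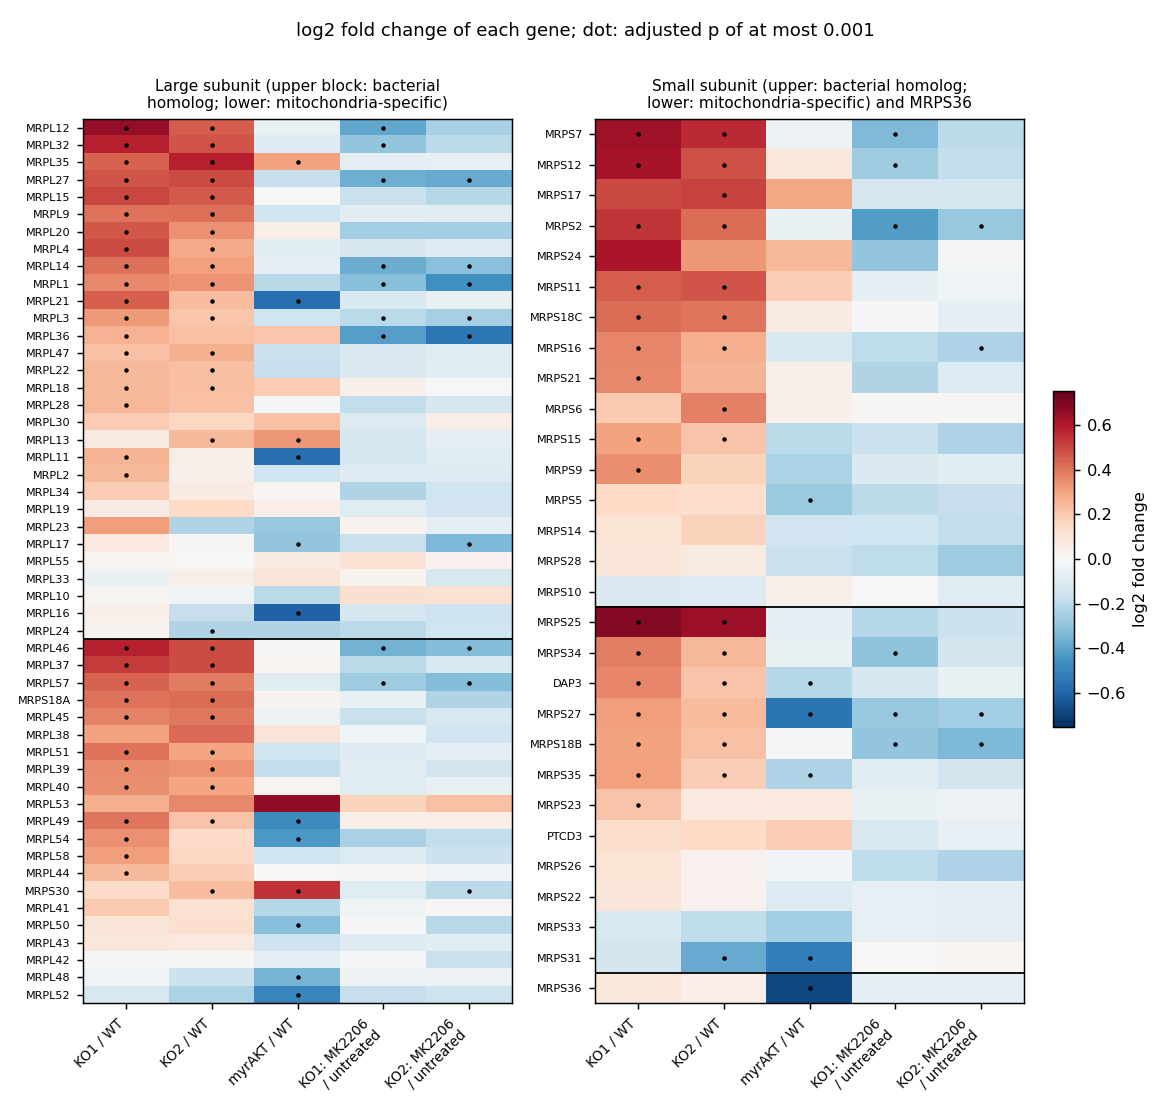
Log2 fold change of each of the 80 mitoribosomal protein genes (rows, by subunit and class) in 5 comparisons (columns) on a colour scale, red for higher and blue for lower, with a dot at an adjusted p of at most 0.001. Dots fill the red columns of KO1 (47) and KO2 (41 higher, 2 lower), those of MK2206 are all on blue cells (15 in KO1 and 13 in KO2), and myrAKT holds 15 on blue and 3 on red cells.

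MRPS25, a mitochondria-specific protein of the small subunit (chr3:15009611-15065339, minus strand), rose most. It was read at 29.8, 28.3 and 27 CPM in WT, 45, 48.2 and 45.9 CPM in KO1 and 46, 45.4 and 42.2 CPM in KO2 (log2 fold change 0.66, SE 0.05, adjusted p = 9.61e-07). All 6 KO libraries lay above all 3 WT libraries. Its exons share 7157 bases with NR2C2 on the opposite strand, which had 4213 to 5720 counts per library and a log2 fold change of 0.09 (adjusted p = 0.0851). MRPS7, the homolog of bacterial uS7 in the head of the small subunit (chr17:75261674-75266376, plus strand), stood at 49.6, 52.4 and 53.8 CPM in WT, 81.3, 81.2 and 83 CPM in KO1 and 76.6, 72.3 and 82 CPM in KO2 (log2 fold change 0.59, SE 0.0507, adjusted p = 2.13e-06), again without overlap. It shares 149 exon bases with MIF4GD on the opposite strand, whose RNA fell by 0.46 on the log2 scale in KO. MRPS12, the homolog of uS12 in the decoding centre (chr19:38930944-38933168, plus strand), has no annotated exon overlap. Its levels were 18.9, 19.3 and 19.2 CPM in WT, 30.1, 28.9 and 30.2 CPM in KO1 and 26.8, 25.7 and 28 CPM in KO2 (log2 fold change 0.54, SE 0.0581, adjusted p = 1.13e-05).

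In the large subunit the largest rises were those of MRPL12 and MRPL46. MRPL12, the L7/L12 protein of the stalk that recruits translation factors (chr17:81703367-81707517, plus strand), was at 21.1, 24.1 and 22.5 CPM in WT, 36.8, 34.5 and 37.3 CPM in KO1 and 30.7, 31.3 and 31.4 CPM in KO2 (log2 fold change 0.56, SE 0.0758, adjusted p = 6.86e-05). A row of an overlapping gene on its strand held 0 counts in every library. MRPL46, in the central protuberance (chr15:88459477-88467390, minus strand), was at 12.6, 12.7 and 12.9 CPM in WT, 19.1, 19.3 and 19.4 CPM in KO1 and 18.3, 17.8 and 17.7 CPM in KO2 (log2 fold change 0.53, SE 0.0513, adjusted p = 5.64e-06). For MRPS12, MRPL12 and MRPL46 every KO library lay above every WT library. MRPS11, which starts 63 bases from MRPL46 on the other strand, rose as well (log2 fold change 0.46, SE 0.0528, adjusted p = 1.99e-05).

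Rises were spread over both subunits and over both evolutionary classes. They took 12 of 28 genes of the small subunit (median log2 fold change 0.26) and 21 of 51 of the large (0.23). By origin they took 7 of 16 small-subunit genes with a bacterial homolog (0.31), 5 of 12 mitochondria-specific ones (0.19), 13 of 30 large-subunit genes with a homolog (0.23) and 8 of 21 mitochondria-specific ones (0.31). In the central protuberance 4 of 8 rose, MRPL46 and MRPL27 (0.48, adjusted p = 3.92e-06) the most, and around the exit tunnel 3 of 6, among them MRPL45 (0.38, adjusted p = 1.14e-05) and MRPL47 (0.23, adjusted p = 0.000287). In the stalk and its base, MRPL12 was the 1 gene of 5 called. The others were at −0.01 (MRPL10, which anchors MRPL12, adjusted p = 0.849), 0.15 (MRPL11, adjusted p = 0.088), 0.31 (MRPL53, 0.119) and 0.24 (MRPL54, 0.0245). DAP3, a GTP-binding protein of the small subunit known for its part in apoptosis, rose (log2 fold change 0.29, SE 0.054, adjusted p = 0.000759). PTCD3, the pentatricopeptide protein of the small subunit, did not pass (log2 fold change 0.13, SE 0.0337, adjusted p = 0.00516), nor did MRPL58, which keeps peptidyl-tRNA hydrolase activity and rescues stalled ribosomes (log2 fold change 0.23, SE 0.0612, adjusted p = 0.00645).

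Each knockout pool was then set against WT. KO1 had 47 genes higher and 0 lower (20.5% and 21.3% of all genes, median 0.30), and KO2 had 41 higher and 2 lower (20.8% and 22.2%, median 0.22). With a minimum of 1.5-fold there were 4 higher and 0 lower in KO1 (4.59% and 9.28%) and 1 and 0 in KO2 (5.56% and 11.2%). Libraries did not overlap for 65 genes higher and 2 lower in KO1 (35.8% and 33.4%) and for 57 and 7 in KO2 (36.1% and 34.2%). For KO1, 60 genes were higher and 3 lower at an unadjusted p under 0.05, and DESeq2 called 48 and 0. For KO2 these counts were 56 and 7, and 39 and 3. These comparisons share the WT libraries. MRPS25 led in both, at 0.69 in KO1 and 0.64 in KO2. MRPL12 (0.66) and MRPS7 (0.64) followed in KO1, and MRPL35 (0.58) and MRPS7 (0.56) in KO2. The falls in KO2 were MRPS31 (log2 fold change −0.38, SE 0.0533, adjusted p = 3.1e-05) and MRPL24 (log2 fold change −0.23, SE 0.0447, adjusted p = 0.000545). MRPS31, a mitochondria-specific protein of the small subunit, was at 23, 23.6 and 22.1 CPM in WT, 21.2, 21 and 21 CPM in KO1 and 17.1, 18 and 17.9 CPM in KO2, and pseudogene rows held 11.4% of its reads. Among these 3 groups its KO2 libraries were the lowest, with those of KO1 between them and WT. MRPL24, the homolog of uL24, was at 43.8, 40.2 and 43.5 CPM in WT, 43.3, 45.1 and 43.3 CPM in KO1 and 36.7, 35.1 and 37.6 CPM in KO2, with KO2 below WT and KO1. The fall of MRPL24 was lost without WT replicate 3, KO2 replicate 1 or KO2 replicate 2 (−0.21, −0.24 and −0.21), which left 1 fall, and without KO2 replicate 3 there were 4 falls. The count of rises in KO2 was 24 without KO2 replicate 1 and 25 without KO2 replicate 3.

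Set directly against KO2, KO1 had 5 genes higher and 0 lower (7.06% and 5.54% of all genes, median 0.06). With a minimum of 1.5-fold there were 0 and 0 (1.87% and 0.744%), and libraries did not overlap for 32 higher and 5 lower (25.4% and 20.3%). At an unadjusted p under 0.05 there were 31 and 6, and DESeq2 called 6 and 0. The count of higher genes was 17 with a filter of 1 count, 3 with library totals and 0 with all 18 libraries in 1 fit. The 5 genes were MRPL24 (log2 fold change 0.26, SE 0.0419, adjusted p = 0.000156), MRPL21 (0.22, adjusted p = 0.000443), MRPL11 (0.21, adjusted p = 0.000685), MRPL49 (0.18, adjusted p = 0.000396) and DAP3 (0.15, adjusted p = 0.000772). MRPL49 and DAP3 fall outside the naming rule in this comparison and are given since the count is small, with their values known. MRPL21, MRPL11 and MRPL49 lie on chromosome 11, where 31.2% of the 866 tested genes were higher in KO1 than in KO2 (median 0.17), against 5.67% of the 14611 genes elsewhere. Away from chromosome 11, 2 of 73 mitoribosomal genes were called. The count depended on single libraries: it was 1 without KO1 replicate 1, KO1 replicate 3 or KO2 replicate 2 and 0 without KO2 replicate 1. MRPL21 was lost without any of KO1 replicate 1 (0.23), KO1 replicate 3 (0.20) and KO2 replicates 1, 2 and 3 (0.21, 0.22 and 0.22). MRPL11 was lost without KO1 replicate 1 (0.18), KO1 replicate 3 (0.21), KO2 replicate 1 (0.20) or KO2 replicate 2 (0.19), and MRPL24 without KO2 replicate 1 (0.26). For all 80 genes the fitted difference was under 1.5-fold, with 95% bounds of −0.39 to 0.79 on the log2 scale over the genes.

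In myrAKT against WT the share of mitoribosomal genes that fell was near that of all genes. Since no group carries an empty virus, this comparison does not isolate AKT activity. MyrAKT had 3 genes higher and 15 lower (12.7% and 17.3% of all genes), with a median log2 fold change of −0.08 against 0.02 over all genes. With a minimum of 1.5-fold 0 were higher and 2 lower, MRPS36 and MRPL16 (4.94% and 8.83% of all genes). Libraries did not overlap for 12 genes higher and 33 lower (30.3% and 30.6%). Among small-subunit genes 5 of 28 fell and 0 rose, and among large-subunit genes 9 of 51 fell and 3 rose. Without WT replicate 3 the count of falls was 9, and it was 9 to 13 over all libraries left out. KO against WT and myrAKT against WT share the WT libraries.

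The largest falls were those of MRPS36, MRPL16, MRPL21, MRPL11 and MRPS27. MRPS36 (chr5:69217760-69230158, plus strand) was at 24, 24.5 and 22.3 CPM in WT and 15.1, 15 and 14.2 CPM in myrAKT (log2 fold change −0.68, SE 0.0617, adjusted p = 3.93e-07). MRPL16, the homolog of uL16 near the peptidyl transferase centre (chr11:59806140-59810778, minus strand), was at 47.9, 49.1 and 48.9 CPM in WT and 34.4, 33.6 and 28.4 CPM in myrAKT (log2 fold change −0.61, SE 0.0617, adjusted p = 1.32e-06). MRPL21, the homolog of bL21 (chr11:68891276-68903835, minus strand), was at 32.6, 32.1 and 31.4 CPM in WT and 22, 22.9 and 20.3 CPM in myrAKT (log2 fold change −0.57, SE 0.0557, adjusted p = 9.42e-07). All myrAKT libraries of these 3 genes lay below all WT libraries. MRPL11, the homolog of uL11 at the stalk base (chr11:66435075-66466738, minus strand), was at 61.6, 59.4 and 59.2 CPM in WT and 41.3, 42.6 and 38.3 CPM in myrAKT (log2 fold change −0.57, SE 0.0476, adjusted p = 1.89e-07). MRPS27, a pentatricopeptide protein of the small subunit (chr5:72214953-72321717, minus strand), was at 143, 135 and 142 CPM in WT and 102, 93.5 and 92.7 CPM in myrAKT (log2 fold change −0.55, SE 0.0462, adjusted p = 1.89e-07). It shares 276 exon bases with PTCD2 on the opposite strand, which fell as well (log2 fold change −0.59, adjusted p = 1.08e-06). For MRPL11 and MRPS27 the groups did not overlap. In the stalk list MRPL54 fell too (−0.43, adjusted p = 0.000472), while MRPL10 was at −0.20 (adjusted p = 0.00389), MRPL12 at −0.05 (0.54) and MRPL53 at 0.67 (0.00334, from 70 to 152 counts per library). DAP3 fell (−0.22, adjusted p = 0.000516), and PTCD3 (0.19, adjusted p = 0.00201) and MRPL58 (−0.15, adjusted p = 0.0355) did not pass. The other falls were MRPS31 (−0.51), MRPL52 (−0.49), MRPL49 (−0.47), MRPL48 (−0.35), MRPL50 (−0.32), MRPL17 (−0.30), MRPS5 (−0.28) and MRPS35 (−0.23). MRPL49 shares 356 exon bases with SYVN1 on the opposite strand, which was at −0.43 (adjusted p = 2.18e-06). PELI3, which shares 119 with MRPL11, and YY1AP1, which shares 193 with DAP3, were at 0.09 and 0.0002 (adjusted p = 0.362 and 0.998).

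The 3 rises in myrAKT were MRPS30, MRPL13 and MRPL35. MRPS30, a mitochondria-specific protein of the central protuberance despite its small-subunit name (chr5:44808947-44820428, plus strand), was at 69.7, 70.8 and 72.3 CPM in WT and 104, 103 and 105 CPM in myrAKT (log2 fold change 0.54, SE 0.0407, adjusted p = 5.82e-08). MRPL13 (log2 fold change 0.33, SE 0.046, adjusted p = 3.25e-05) was at 45, 46.9 and 46.8 CPM in WT and 59.1, 60.2 and 55.7 CPM in myrAKT, and MRPL35 (log2 fold change 0.30, SE 0.0513, adjusted p = 0.000197) at 41.6, 42.7 and 41.2 CPM in WT and 55, 52.3 and 48 CPM in myrAKT. No myrAKT library of these genes overlapped WT. The call of MRPL35 was lost without WT replicate 1 (0.29), WT replicate 3 (0.29), myrAKT replicate 1 (0.25) or myrAKT replicate 2 (0.28), which left 2 rises.

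Of the 15 falls, 6 were of genes on chromosome 11 (MRPL16, MRPL21, MRPL11, MRPL49, MRPL48 and MRPL17), where 7 mitoribosomal genes lie, the other being MRPL23 (−0.28, adjusted p = 0.255). RNA of this chromosome was lower as a whole in myrAKT: of its 866 tested genes 67% were called lower and 2.31% higher, with a median log2 fold change of −0.54, beside −0.47 for the 7 mitoribosomal genes. On the other chromosomes 9 of 73 fell and 3 rose, against 14.4% and 13.4% of 14611 genes, with medians of −0.05 and 0.03. The 50 tested genes nearest to each gene were then read. Their median was −0.45 around MRPL21, −0.45 around MRPL16, −0.46 around MRPL11 and −0.53 around MRPL49. On chromosome 5 it was −0.42 around MRPS36 (32 of 50 lower) and −0.47 around MRPS27 (34 of 50 lower), so the 5 largest falls all lay among neighbours that were lower too. By contrast the medians around MRPS31, MRPL54, MRPL50, MRPS5 and DAP3 were 0.02, 0.06, 0.04, 0.17 and −0.01, and around MRPL52 −0.25. The value around MRPS35 is not given, and on its chromosome 12 the median of all tested genes was 0.02. Around the genes that rose the median of the neighbours was −0.09 (MRPS30), 0.25 (MRPL13) and 0.21 (MRPL35). DNA copy number was not measured, and the part of the chromosomal position in these values was not tested.

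The same reading was made in KO. Of the 7 chromosome 11 genes 0 were called in KO against WT, on a chromosome with 6.81% of genes higher and 21.6% lower (in KO2 alone 42.8% lower). Set against WT by pool, 3 of the 7 were higher in KO1 and 2 in KO2, on a chromosome with 18.4% and 8.43% of genes higher. On the other chromosomes 33 of 73 rose, against 16.1% of genes. Fold changes lay above the median of the neighbours for 70 of the 80 genes, by a median of 0.24 on the log2 scale, and the neighbour medians themselves ran from −0.23 to 0.24. In myrAKT 22 of the 80 lay above their neighbours.

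**Figure D3:**
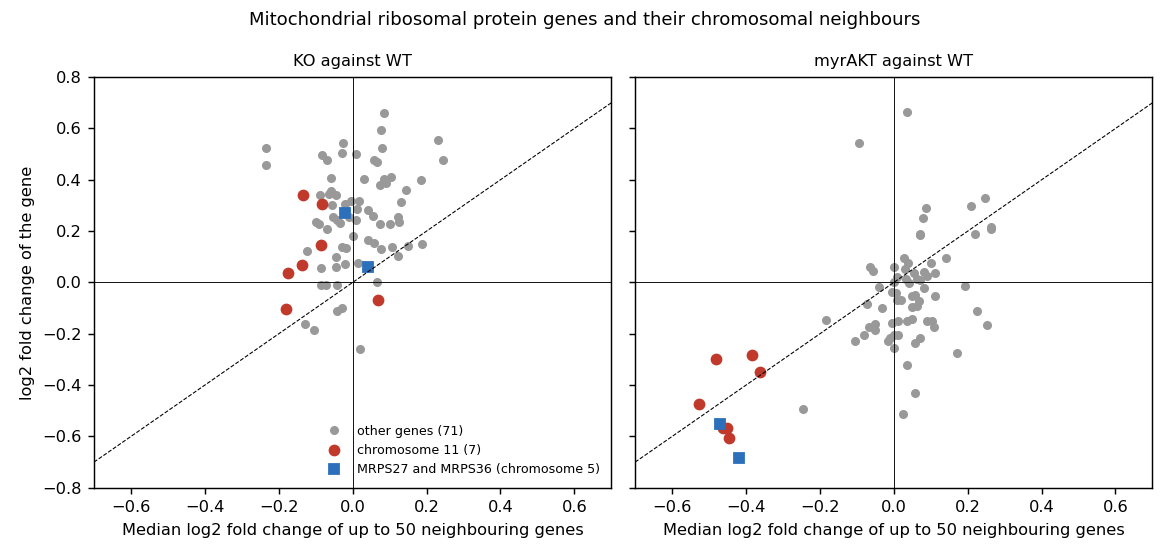
Log2 fold change of each mitoribosomal protein gene (vertical axis) against the median log2 fold change of the up to 50 tested genes nearest to it (horizontal axis), in KO against WT and myrAKT against WT, with equality dashed. In myrAKT the 7 genes of chromosome 11 and MRPS27 and MRPS36 sit at the lower left with neighbour medians of −0.53 to −0.36, whereas in KO 70 of 80 genes lie above the dashed line.

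**Figure D4:**
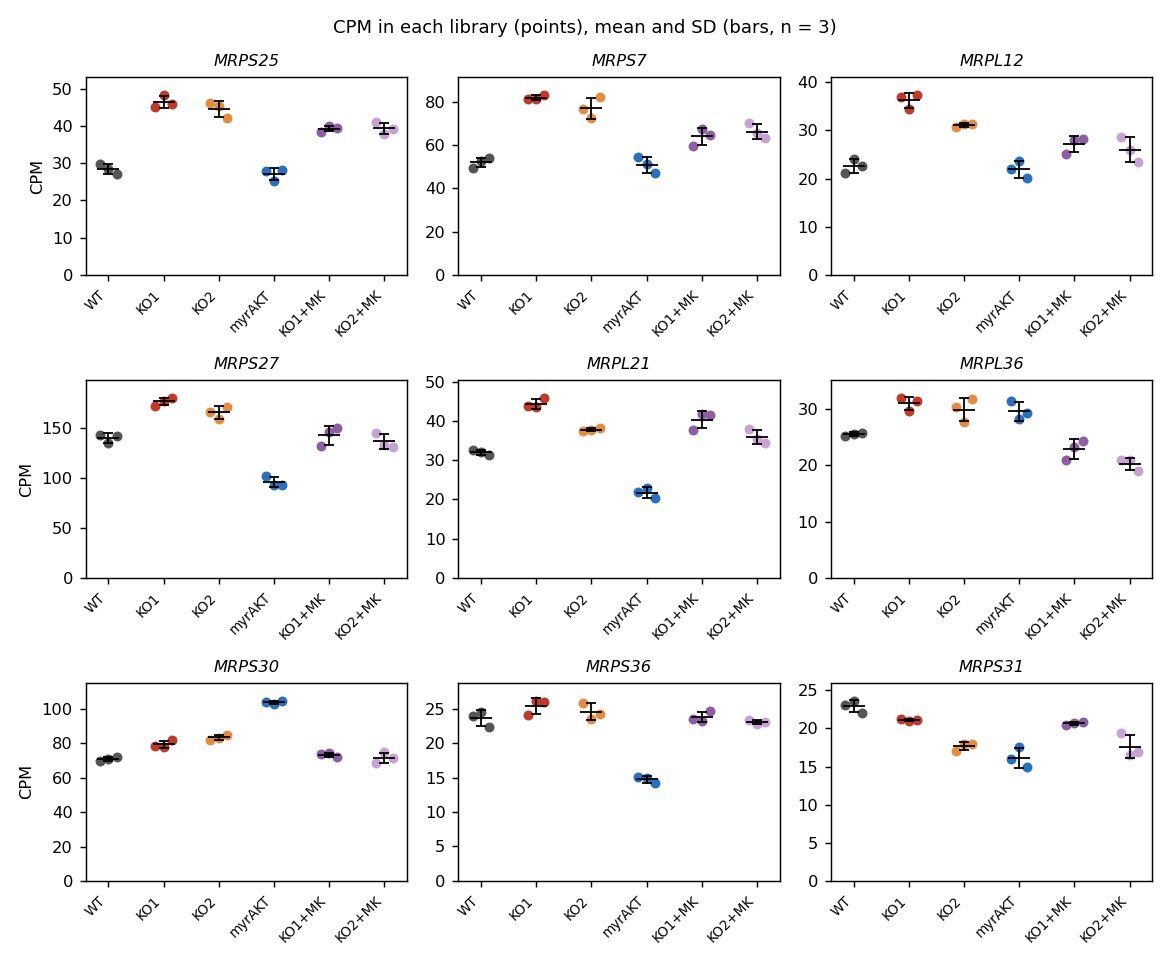
CPM of 9 mitoribosomal protein genes in each library (points) of the 6 groups, with the group mean and SD as bars (n = 3) and axes from 0. MRPS25, MRPS7 and MRPL12 are high in KO1 and KO2, MRPS27, MRPL21 and MRPS36 are low in myrAKT, MRPL36 is lowest in the treated groups, MRPS30 is highest in myrAKT, and MRPS31 is low in KO2, KO2+MK and myrAKT.

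MK2206 was set against no treatment in the knockout pools, to ask which changes follow AKT inhibition. Of the 80 genes 17 fell and 0 rose (8.75% and 12.8% of all genes), with a median of −0.12 and 73 below 0. At an unadjusted p under 0.05, 43 were lower and 1 higher, and DESeq2 called 25 lower and 0 higher. The count of falls was 11 without any 1 of the KO1 libraries or KO2+MK replicate 2. With the pool as a term in the fit it was 29, and with all 18 libraries in 1 fit 35. Falls took 7 of 28 small-subunit genes (median −0.16) and 10 of 51 of the large subunit (−0.11). Libraries did not overlap for 25 genes lower after treatment (13.4% of all genes) and for 0 higher (14.0%). With a minimum of 1.5-fold 0 genes passed in either direction (2.03% of all genes lower and 4.5% higher).

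MRPL36, the homolog of the small bacterial protein bL36 (chr5:1798385-1801366, minus strand), fell most. It was at 31.9, 29.7 and 31.4 CPM in KO1 and 30.3, 27.6 and 31.7 CPM in KO2 before treatment and at 21, 23.3 and 24.4 CPM in KO1+MK and 20.9, 21 and 19 CPM in KO2+MK after it (log2 fold change −0.47, SE 0.0563, adjusted p = 1.06e-05). MRPL1, the homolog of uL1 at the mobile stalk near the exit site (chr4:77862830-77952785, plus strand), was at 31.9, 32.4 and 32.6 CPM in KO1, 31.7, 31.2 and 31.5 CPM in KO2, 26.7, 25.3 and 24.4 CPM in KO1+MK and 22.6, 22 and 23.1 CPM in KO2+MK (log2 fold change −0.39, SE 0.0455, adjusted p = 9.62e-06). In both genes all treated libraries lay below all untreated ones. MRPL27 (bL27, in the central protuberance) was at 44.5, 43.5 and 48.2 CPM in KO1, 45.1, 44.7 and 46.9 CPM in KO2, 34.3, 35.3 and 34.5 CPM in KO1+MK and 36.7, 34.3 and 33 CPM in KO2+MK (log2 fold change −0.37, SE 0.0355, adjusted p = 1.63e-06). MRPS2, the homolog of uS2 (chr9:135499984-135504673, plus strand), was at 72.7, 66.4 and 71.9 CPM in KO1, 66.8, 62.3 and 63.9 CPM in KO2, 48.1, 53.6 and 53.5 CPM in KO1+MK and 58, 49.7 and 48.7 CPM in KO2+MK (log2 fold change −0.35, SE 0.0506, adjusted p = 5.99e-05). MRPL14, the homolog of uL14 at the subunit interface (chr6:44113451-44127452, minus strand), was at 59.5, 60.1 and 61.7 CPM in KO1, 55.6, 55.2 and 56.4 CPM in KO2, 43.6, 47.3 and 46.8 CPM in KO1+MK and 47.2, 43.7 and 42.1 CPM in KO2+MK (log2 fold change −0.34, SE 0.0394, adjusted p = 8.12e-06). In these 3 genes, too, no treated library reached the level of an untreated one, and for MRPL36 the treated libraries also lay below all WT libraries. Of the 5 genes that rose most in KO, those that also fell with MK2206 were MRPS25 −0.19 (adjusted p = 0.000543), MRPS7 −0.27 (0.000105), MRPL12 −0.32 (0.000701) and MRPL46 −0.34 (1.46e-05), while MRPS12 did not pass (−0.22, adjusted p = 0.00255). Among the other fixed genes, MRPL10, MRPL11, MRPL53, MRPL54, DAP3, PTCD3 and MRPL58 lay between −0.22 and 0.20 and none passed. KO against WT and MK2206 in KO share the untreated KO libraries.

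Within single pools 15 genes fell with MK2206 in KO1 (8.26% of all genes, median −0.12) and 13 in KO2 (8.78%, median −0.13), and 0 rose in each (10.9% and 13.1%). Libraries did not overlap for 49 genes lower and 0 higher in KO1 (30.1% and 25.4%) and for 45 and 0 in KO2 (29.2% and 26.2%), and with a minimum of 1.5-fold 0 genes were lower (1.71% and 2.16%) or higher (3.3% and 4.9%) in the KO1 and KO2 pools. At an unadjusted p under 0.05, 46 genes were lower and 1 higher in KO1 and 44 and 1 in KO2, and DESeq2 called 16 lower in KO1, 14 in KO2 and 0 higher in each. A filter of 1 count gave 28 falls in KO1. The largest falls in KO1 were MRPS2 (−0.42), MRPL36 (−0.41) and MRPL12 (−0.39), and in KO2 MRPL36 (−0.54), MRPL1 (−0.46) and MRPL27 (−0.38). These counts rested on few libraries: in KO1 the count was 9 without KO1 replicate 1 and 8 without KO1 replicate 3, and in KO2 it was 6 without KO2 replicate 1 or 3, 5 without KO2+MK replicate 2 and 8 without KO2+MK replicate 3. The difference of the MK2206 effect between the pools, tested as an interaction, was called for 0 genes in either direction (0.0% and 0.0128% of all genes). At an unadjusted p under 0.05 there were 3 and 1, and DESeq2 called 0 and 0. The fitted difference was under 1.5-fold for all 80 genes, with 95% bounds of −0.77 to 0.64 over the genes and a median SE of 0.0732.

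Treated KO cells were also set against WT, a comparison added after seeing the data. Here 10 genes were higher and 1 lower (16.0% and 16.1% of all genes, median 0.10), with 0 and 0 at a minimum of 1.5-fold (6.11% and 8.94%) and libraries that did not overlap for 26 and 7 (27.9% and 27.1%). MRPS25 (0.46, adjusted p = 4.84e-06), MRPL35 (0.43, adjusted p = 8.89e-05) and MRPS11 (0.40, adjusted p = 0.00016) were highest, and MRPL52 was the 1 that was lower (−0.36, adjusted p = 0.000161). The counts higher and lower were 17 and 3 with DESeq2, 19 and 7 with all 18 libraries in 1 fit, and 5 and 6 with a filter of 1 count. The count of rises was 2, 4 and 5 without WT replicate 1, 2 and 3, and 6 without KO1+MK replicate 2 or KO2+MK replicate 1. Without WT replicate 1 the calls of MRPL52 (−0.30) and MRPS11 (0.33) were lost, which left 0 falls. Whether MK2206 would lower these genes in WT cannot be read here, since WT cells were not treated.

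KO was compared with myrAKT directly. KO had 44 genes higher and 1 lower (19.1% and 16.7% of all genes, median 0.35), 11 and 0 with a minimum of 1.5-fold (6.81% and 9.39%), and libraries did not overlap for 60 and 2 (30.6% and 26.0%). MRPL21 (log2 fold change 0.90, SE 0.0754, adjusted p = 1.28e-06), MRPS27 (log2 fold change 0.82, SE 0.0456, adjusted p = 6.61e-08) and MRPL49 (log2 fold change 0.78, SE 0.0657, adjusted p = 1.44e-06) were highest, and each lies among genes whose median was lower in myrAKT. MRPL49 was at 85.6, 94.1 and 89.8 CPM in WT, 119, 118 and 124 CPM in KO1, 107, 100.3 and 107 CPM in KO2 and 69, 65.5 and 60.7 CPM in myrAKT. MRPS30 was the 1 gene that was lower in KO (log2 fold change −0.37, SE 0.0374, adjusted p = 6.05e-06). On chromosome 11, 5 of 7 genes were higher in KO, where 45% of all its genes were. On the other chromosomes 39 of 73 were, against 17.6% of genes.

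Genes that serve the mitoribosome were read beside its proteins, from lists fixed with the members. Their counts, and those of the comparator lists after them, stand beside 15.5% of all genes called higher and 16.6% lower in KO, 12.7% and 17.3% in myrAKT, and 12.8% and 8.75% with MK2206, and a share near these is no result about a list. Of 27 genes for assembly and rRNA modification, 13 rose and 2 fell in KO (median 0.28), 1 rose and 4 fell in myrAKT, and 1 rose and 5 fell with MK2206. DDX28, an RNA helicase of large-subunit assembly, rose in KO (log2 fold change 0.99, adjusted p = 1.14e-06) and in myrAKT (log2 fold change 0.79, adjusted p = 1e-05). MRM2, a methyltransferase of the large rRNA, rose in KO (log2 fold change 0.64, adjusted p = 2.05e-06), and RPUSD4, a pseudouridine synthase encoded on chromosome 11, fell in myrAKT (log2 fold change −0.98, adjusted p = 2.62e-09). Of 3 mitoribosomal proteins with other symbols, 2 rose in KO, GADD45GIP1 (log2 fold change 0.41, adjusted p = 1.35e-05) and AURKAIP1 (log2 fold change 0.39, adjusted p = 1.09e-05). Of 14 translation factors 4 rose and 1 fell in KO, with GUF1 (log2 fold change 0.44, adjusted p = 7.14e-06) and TACO1 (log2 fold change 0.35, adjusted p = 6.88e-05) leading. In myrAKT 2 fell, GFM2 (log2 fold change −0.53, adjusted p = 4.12e-07) and OXA1L (log2 fold change −0.32, adjusted p = 2.51e-05), and 2 fell with MK2206. The falls in myrAKT, 4 of 27 and 2 of 14, were near the share of all genes.

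Of 22 mitochondrial tRNA synthetases 7 rose and 0 fell in KO, MARS2 (log2 fold change 0.71, adjusted p = 1.05e-06) and CARS2 (log2 fold change 0.71, adjusted p = 2.88e-07) the most. In myrAKT 5 fell, led by NARS2 (log2 fold change −1.02, adjusted p = 7.06e-09) and GARS1 (log2 fold change −0.37, adjusted p = 7.09e-05), and 4 fell with MK2206. The share of falls in myrAKT lay near that of all genes. Of 10 genes for mitochondrial transcription and RNA stability 7 rose and 1 fell in KO. The largest changes were TEFM, the elongation factor (log2 fold change 0.53, adjusted p = 2.39e-05), and MTRES1 (log2 fold change −0.56, adjusted p = 0.000175). In myrAKT 1 fell, SLIRP (log2 fold change −0.26, adjusted p = 0.00013), and 1 fell with MK2206. Of the 13 proteins encoded by mitochondrial DNA 5 rose and 1 fell in KO, with MT-ND2 (log2 fold change 0.73, adjusted p = 5.04e-05) and MT-CYB (log2 fold change 0.70, adjusted p = 8.47e-05) the highest and MT-CO1 the 1 that fell (log2 fold change −0.32, adjusted p = 0.000506). In myrAKT their median was 0.20, and MT-CYB, at 0.53, did not pass (adjusted p = 0.00168). With MK2206 MT-CO1 (−0.29) and MT-CO2 (−0.36) fell. MT-CO1 and MT-CO2 were named after their values were seen. The mitochondrial rRNAs MT-RNR1 and MT-RNR2 fell in KO2 against WT (log2 fold changes −1.11 and −1.04, adjusted p = 0.000287 and 0.000339). In KO1 they were at 0.08 and 0.57, in myrAKT at −0.65 and −0.64, and with MK2206 in KO at −0.10 and −0.52, none of which passed. By pool, the MK2206 values were −1.40 and −2.07 in KO1 (adjusted p = 0.0321 and 0.0154) and 1.14 and 1.08 in KO2 (0.00255 and 0.0053), and the difference between the pools, −2.54 and −3.15, did not pass either (0.196 and 0.18). The libraries were depleted of ribosomal RNA, so these levels are not a measure of ribosome number.

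The protein genes of the cytosolic ribosome and of the respiratory chain were read as comparators. Of 84 tested cytosolic ribosomal protein genes 11 rose and 1 fell in KO (median 0.08), with RPL7L1 (log2 fold change 0.57, adjusted p = 1.32e-06) and RPL39L (log2 fold change −0.49, adjusted p = 3.9e-05) the most. In myrAKT 6 rose and 8 fell (0.03), with RPL30 (log2 fold change 0.61, adjusted p = 1.04e-07) and RPS25 (log2 fold change −0.64, adjusted p = 1.87e-08) the most, and with MK2206 11 fell (−0.11). Of 76 nuclear genes for oxidative phosphorylation subunits 6 rose and 0 fell in KO (0.09), NDUFA11 (log2 fold change 0.39, adjusted p = 0.000724) and NDUFV3 (log2 fold change 0.36, adjusted p = 2.82e-05) the most. In myrAKT 3 rose and 13 fell (−0.05), SDHD (log2 fold change −1.05, adjusted p = 4.9e-10) and ATP5MG (log2 fold change −0.84, adjusted p = 1.76e-09) the most, and 2 fell with MK2206 (−0.06). RPS25, SDHD, ATP5MG and NARS2, like RPUSD4, lie on chromosome 11. In KO with both pools joined, the share of rises in both lists was below that of all genes. By pool, 28 of 84 cytosolic ribosomal genes were higher and 1 lower in KO1 (median 0.11) and 16 and 5 in KO2 (0.07), and 26 of 76 oxidative phosphorylation genes were higher and 2 lower in KO1 (0.09) and 11 and 5 in KO2 (0.08), against 20.5% of all genes higher in KO1 and 20.8% in KO2. Both lists thus held a larger share of rises than all genes in KO1 and a smaller one in KO2. The falls of oxidative phosphorylation genes in myrAKT were near the share of all genes. Medians of the 80 mitoribosomal genes in the same comparisons were 0.25, −0.08 and −0.12, and the lists were not tested against each other. For the 38 mitoribosomal genes without exon overlap, 15 rose and 0 fell in KO (0.23), 2 rose and 10 fell in myrAKT (−0.16) and 0 rose and 7 fell with MK2206 (−0.14).

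**Figure D5:**
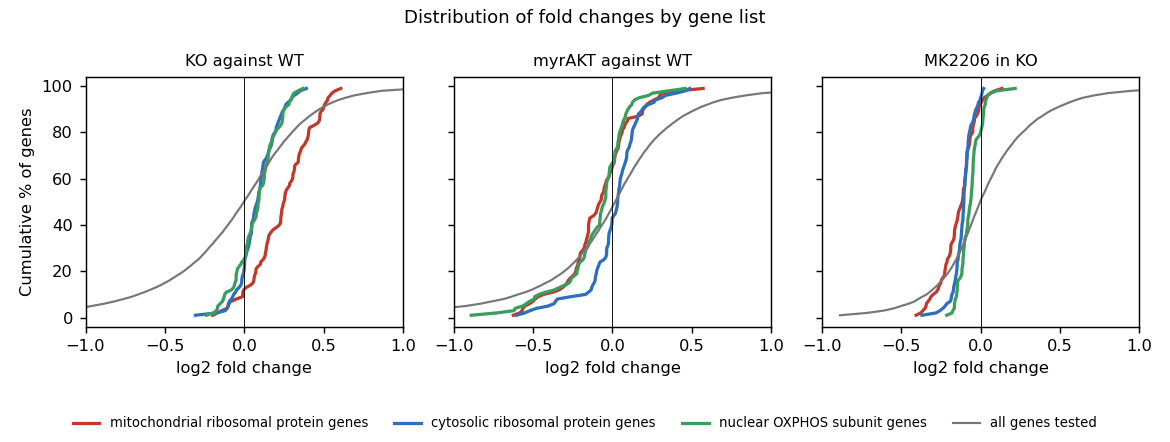
Cumulative percent of genes (vertical axis) at or below each log2 fold change (horizontal axis) for mitoribosomal protein genes, cytosolic ribosomal protein genes, nuclear oxidative phosphorylation (OXPHOS) subunit genes and all genes tested, 1 panel per comparison. In KO against WT the mitoribosomal curve crosses 50% at 0.25 and those of the other lists at 0.08 and 0.09, and with MK2206 in KO it crosses 50% at −0.12.

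MYC, a transcription factor for which ribosomal and mitochondrial genes are known targets, moved in opposite directions in the knockout pools. Its level was 281 ± 13.4 CPM in WT, 327 ± 7.60 in KO1, 228 ± 13.4 in KO2 and 133 ± 12.7 in myrAKT (SD, n = 3). It rose in KO1 (log2 fold change 0.20) and fell in KO2 (−0.31), in myrAKT (−1.09) and with MK2206 in KO (−0.62). The part of MYC in these values was not tested.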

How the data were processed

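RNA-seq counts of 18 MDA-MB-231 libraries were analysed (6 groups of 3). The authors deposited raw counts per Ensembl gene, made with FastQC, Trim Galore, HISAT2 on hg38, MultiQC and featureCounts per the labels. Versions, the strand setting and the treatment of reads shared by genes are not given in the sources used here. Ribosomal RNA had been depleted, and all libraries were run together in 1 pool on 2 sequencing runs. Between 23419198 and 39319910 counts fell in each library, lowest in the treated groups (medians of 27113081 in KO1+MK and 29885567 in KO2+MK, against 38031000 in KO1 and 37434183 in KO2), and counting error is part of the spread reported. Every per-sample column matched a label (0 columns were left unused).

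The 15587 genes reaching 1 CPM in 3 or more libraries were tested with edgeR 4.0.16 (TMM, quasi-likelihood) in R 4.3.3, each comparison fitted on its own groups. P-values were adjusted over all genes tested (Benjamini-Hochberg), and a call needs an adjusted p of at most 0.001 with no minimum fold. CPM values are TMM-scaled, log2 CPM used a prior count of 2, and the fits were tested on simulated data. DESeq2 1.42.0 was used beside edgeR, and Python 3.11.15 with pandas 2.3.3, numpy 2.4.6 and matplotlib 3.10.9 for tables and plots. Limma 3.58.1 was present, and no fit was made with limma itself. GENCODE release 44 gave symbols, positions and canonical transcript lengths, and RefSeq the promoter windows. Intervals of 95% are 1.96 SE on each side.

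Genes were named by size: the 5 genes per direction with the greatest change among those called in the 3 main comparisons, the 3 largest in the others, the 3 highest and lowest per length, the stalk list, DAP3, PTCD3 and MRPL58, and of each other list the 2 largest changes in KO and in myrAKT. The genes, lists and tests were chosen with earlier results of these data known. The comparison of treated KO with WT, and the reading by chromosome and neighbouring genes, were added after seeing the data. Replicates differed by more than counting error (chi-square per gene 2.27 to 11.6), and each library was counted as 1 replicate. Alternatives were DESeq2, DESeq2 size factors, library totals, a filter of 1 count, all libraries in 1 fit, a replicate block, the pool as a covariate, a minimum of 1.5-fold, and each library left out.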

Additional observations from a re-analysis of the deposited data

Results flagged for a closer look

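Genes whose level differed between the knockout pools, by the direct test of KO1 against KO2, were listed because both pools stand for the same knockout. They were higher in KO1, with log2 fold changes of 0.26 for MRPL24, 0.22 for MRPL21, 0.21 for MRPL11, 0.18 for MRPL49 and 0.15 for DAP3 (edgeR, adjusted p of at most 0.001 over all genes tested). These 5 of 80 genes stand beside 7.06% of all tested genes called higher in KO1, a share near theirs. MRPL21, MRPL11 and MRPL49 lie on chromosome 11, where 31.2% of tested genes were higher in KO1. Away from it 2 of 73 mitoribosomal genes were called, against 5.67% of genes. With a single library left out, the count over all 80 genes was 0 to 6.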

How the results depend on the processing

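For the 43 changes of mitoribosomal genes named by size within a comparison, the direction stayed the same under every alternative run. They were picked as the largest calls in these same data, so a reversal was unlikely from the outset. With 1 library left out the call was kept in 308 runs and lost in 19. It was lost for 4 changes with all 18 libraries in 1 fit, 2 with a replicate block, and 1 each with library totals and a filter of 1 count. Genes named by a fixed list or from other lists were not rerun one by one. With 1 library left out, counts of genes higher and lower were 23 to 40 and 0 in KO against WT, 36 to 47 and 0 in KO1, 24 to 38 and 1 to 4 in KO2, 2 to 3 and 9 to 13 in myrAKT, 0 and 11 to 16 with MK2206 in KO, 0 and 8 to 18 in KO1, 0 and 5 to 16 in KO2, 0 to 6 and 0 for KO1 against KO2, 35 to 43 and 1 for KO against myrAKT, and 2 to 10 and 0 to 1 for treated KO against WT. A minimum of 1.5-fold left 2 higher in KO, 4 in KO1, 1 higher and 0 lower in KO2, 0 higher and 2 lower in myrAKT, 0 lower with MK2206 in KO, in KO1 and in KO2, 0 higher in KO1 against KO2, 11 higher and 0 lower in KO against myrAKT, and 0 in treated KO against WT. All 18 libraries in 1 fit gave 50 higher and 1 lower in KO, 1 lower in KO2, 35 lower with MK2206 in KO, 0 higher in KO1 against KO2, 2 lower in KO against myrAKT, and 19 higher and 7 lower in treated KO against WT. The filter of 1 count gave 28 lower with MK2206 in KO1, 17 higher in KO1 against KO2, and 5 higher and 6 lower in treated KO against WT. Library totals gave 3 higher in KO1 against KO2 and 2 lower in KO against myrAKT. DESeq2 gave 17 higher and 3 lower in treated KO against WT. The pool as a covariate gave 29 lower with MK2206 in KO. The causes were not tested.

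Replicate numbers did not pair the libraries: same-numbered libraries correlated at −0.46 to 0.32 in their deviations from group means, and in 0 of 15 pairs of groups did all 3 correlations exceed 0.1. As a replicate block they gave 11 lower with MK2206 in KO, 11 higher in KO1 against KO2, and 3 higher and 0 lower in treated KO against WT. MRPS24 and MRPL53 had the lowest counts in a library (34 and 70). How calls depend on depth was not tested.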
